A study of Homo sapiens with 11 samples.

Results

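Integrin subunits are the cell surface receptors through which epithelial cells hold on to the extracellular matrix, and the 10 subunits described here, 5 alpha and 5 beta, are those typical of epithelia. They are ITGA2, ITGA3, ITGA5, ITGA6 and ITGAV among the alpha subunits, and ITGB1, ITGB4, ITGB5, ITGB6 and ITGB8 among the beta subunits. They were taken by name, by a rule that uses no measured value although earlier results of these data were known, as the genes whose Entrez gene identifiers map to these symbols, and both count tables held all 10 among 28395 genes. The mRNA of the human prostate cancer cell lines PC3 and DU145 was sequenced after stable transduction with lentiviral particles that carried ST6GAL1 or with negative control particles. In PC3 there were 3 control libraries and 3 with ST6GAL1 overexpression, and in DU145 there were 3 control libraries and 2 with overexpression, the latter numbered replicates 2 and 3. Control and overexpression cells of a line thus share the transduction and differ by the insert. The libraries are labelled as biological repeats, but whether they came from separate transductions is not given, so p-values measure the spread between these libraries, which may be technical. One construct in selected populations also means that effects of the insert and of the particular population cannot be told apart.

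An integrin at the cell surface is a heterodimer of an alpha and a beta subunit, and the pairing sets which matrix protein it binds. ITGB1 is the shared partner of ITGA2, ITGA3, ITGA5 and ITGA6, whereas ITGB4 pairs with ITGA6 alone, and ITGAV pairs with ITGB1, ITGB5, ITGB6 or ITGB8. The subunits are glycoproteins that carry many N-glycans, and ST6GAL1, a sialyltransferase of the Golgi that caps N-glycans with sialic acid, is known to modify ITGB1. Counts of mRNA measure neither the protein nor its glycans.

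Library totals lay between 13194485 and 18201359 counts, so that a count of 3, taken as the floor, corresponded to 0.165 to 0.227 CPM, that is counts per 1000000 counts of the library. Such floors cover counting error only. ST6GAL1 was read at 33 to 53 counts in PC3 control libraries and 490 to 575 in PC3 overexpression libraries, and at 152 to 216 against 5376 and 5350 in DU145. All 5 epithelial markers examined were read above the floor in all groups, whereas the prostate luminal markers KLK2 and KLK3 were at 0 in every library. Of the 5 fibroblast markers, DCN and LUM were at or under 3 counts per library in every group, while their summed level was 4.63 to 4.84 CPM in PC3 control libraries and 13 to 17.8 CPM with overexpression, of which COL3A1 took 3.85 ± 0.127 and 15.1 ± 2.27 CPM (SD, n = 3 each). Of the 5 immune markers, CD3E was at 0 throughout, 1 or 2 per group exceeded the floor, and the summed level was 0.381 to 0.719 CPM in PC3 control and 0.696 to 0.94 in PC3 overexpression libraries, and 1.52 to 2.17 and 2.65 to 2.78 CPM in DU145, mostly CD14 there (1.7 ± 0.423 and 2.63 ± 0.0606 CPM). Of the 4 endothelial markers, CDH5 was at or under 3 counts per library throughout, and the summed level was 13.4 to 14.8 and 12.2 to 13.9 CPM in PC3, mostly PECAM1 and KDR, and 0.568 to 0.671 and 0.97 to 2 CPM in DU145. The part of these genes in the results was not tested.

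The DU145 overexpression libraries stood apart from each other. Over genes with a GC content above 57.6%, the median log2 ratio of replicate 3 over replicate 2 was 0.42, and over those below 40.8% it was -0.14. Since the subunits range from 36.7% GC (ITGAV) to 64% (ITGB4), each tested subunit in DU145 is given below with the values of both libraries and the value after removal of the trend with GC content and length. Between overexpression and control, the median log2 fold changes of these high and low GC genes were -0.24 and 0.07 in DU145, and 0.04 and -0.03 in PC3.

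The regulatory sequence in front of the members that moved most was examined first. RefSeq promoter windows of GRCh38.p14, from 250 bases before to 50 after a transcript start, existed for 8 of the 10 subunits (13 windows). The upstream bases that no annotated exon covers are shown for ITGB6, which changed most in PC3, and for ITGA2, which changed most in DU145 among subunits read above 10 CPM. ITGB8 changed more in DU145 (log2 fold change 3.15) and was left out by this limit, which ITGB6 in PC3 did not meet either. The whole ITGB8 window was 71.7% GC. Capitals mark matches to the GC box GGGCGG on either strand.
ITGB6, chr2:160200314-160200522, minus strand, 5′ to 3′: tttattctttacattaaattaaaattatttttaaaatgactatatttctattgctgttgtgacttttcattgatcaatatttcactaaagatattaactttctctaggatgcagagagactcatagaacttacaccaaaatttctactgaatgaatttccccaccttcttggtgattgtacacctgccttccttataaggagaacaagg
ITGA2, chr5:52989102-52989339, plus strand, 5′ to 3′: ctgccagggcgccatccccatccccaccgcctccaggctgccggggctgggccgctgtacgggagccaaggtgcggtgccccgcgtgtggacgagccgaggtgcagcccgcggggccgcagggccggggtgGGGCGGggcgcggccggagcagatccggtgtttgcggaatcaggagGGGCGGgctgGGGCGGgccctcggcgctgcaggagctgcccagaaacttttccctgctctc

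These sequences differ in base composition. The ITGB6 stretch was 30.1% GC and the ITGA2 stretch 75.6%. Of all 35116 windows, 1.95% had a GC content at or below that of the whole ITGB6 window (31.7%). The windows were also searched for the TATA box TATAAA, the AP-1 site TGANTCA and the interferon response element ISRE (GAAA, any 2 bases, GAAA) on both strands. The ITGB6 window matched none of the 4 motifs and the ITGA2 window held 4 GC boxes, of which the stretch shown holds 3. The shares of all windows with a match were 45% for the GC box, 11.5% for the TATA box, 7.71% for AP-1 and 3.57% for the ISRE. Among the other subunits, GC boxes were found in the windows of ITGA5 (1), ITGB8 (2), ITGA6 (1 and 3), ITGB5 (2, 2 and 3) and ITGB1 (3 in 1 of 2 windows), and in neither window of ITGAV. The TATA box was found in 1 window of ITGA6 and, 3 times, in 1 window of ITGB1, the AP-1 site in that of ITGA5, and the ISRE in 1 window of ITGB5. No binding or methylation was measured, and a match is a description of the letters only.

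The levels of the subunits were compared first between the control cells of both lines. Levels of different genes are given as CPM per kb of annotated exon. In PC3 control cells ITGA3 was highest at 132.0 ± 3.25 CPM per kb (SD, n = 3), followed by ITGB1 at 90 ± 1.04 and ITGA6 at 83.1 ± 0.904. These are the subunits of the laminin receptors of epithelia. ITGB4 followed at 34 ± 2.41, ITGA2 at 19.9 ± 0.387 and ITGB5 at 12.5 ± 0.0666, and ITGA5, ITGAV and ITGB8 lay between 5 and 2.09 CPM per kb. ITGB6 was lowest at 0.148 ± 0.00646. The library ranges of neighbours in this order did not overlap, but with the longest annotated transcript as the length, ITGA3 (236.2 ± 5.82) and ITGB1 (233.5 ± 2.69) overlapped, and ITGAV came before ITGA5.

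In DU145 control cells ITGB1 led at 160.2 ± 8.98 CPM per kb (SD, n = 3), ahead of ITGA3 at 96.6 ± 3.08 and ITGA6 at 21.6 ± 1.19. ITGA5 at 18.2 ± 0.798 and ITGB5 at 16.8 ± 0.698 overlapped, as did ITGB4 at 6.41 ± 0.787 and ITGA2 at 5.87 ± 0.767. ITGB8, at 0.0282 ± 0.00577, and ITGB6, read with 0, 2 and 0 counts, were close to undetected. With the longest annotated transcript as the length, ITGA5 (26.9 ± 1.18) came before ITGA6 (24.8 ± 1.37) and ITGB5 (24.7 ± 1.02), and their library ranges overlapped.

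**Figure D1:**
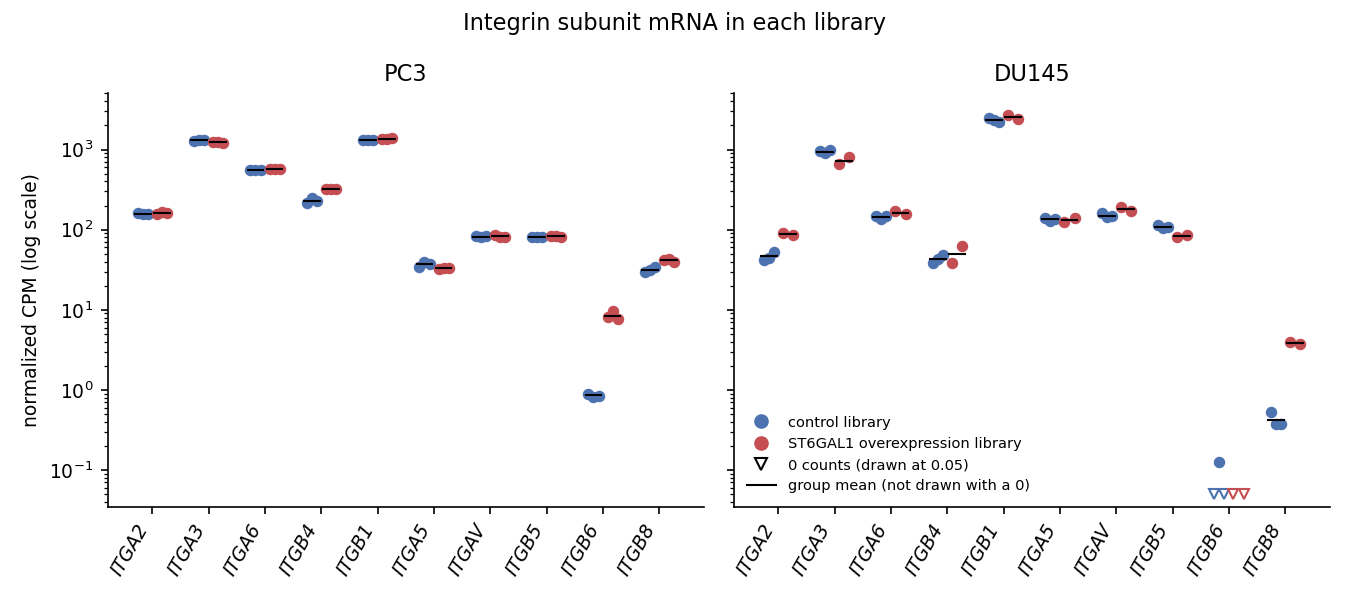
Normalized CPM (log scale) of each subunit in every library of PC3 (left) and DU145 (right), normalized within each line, with control libraries in blue, ST6GAL1 overexpression libraries in red, and black bars for group means. In PC3 all overexpression libraries lie above all control libraries for ITGA6, ITGB1, ITGB4, ITGB6 and ITGB8, and below them for ITGA3 and ITGA5. In DU145 they lie above for ITGA2, ITGA6, ITGAV and ITGB8, and below for ITGA3 and ITGB5. ITGB6 has 0 counts in 4 of 5 DU145 libraries. How often the libraries of other genes separate in this way was not counted.

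Normalized CPM of the same gene can be compared between the lines without the length, although the line cannot be told apart from the table and sequencing run in which it was counted. All 10 subunits passed an adjusted p of 0.05 between the control lines (edgeR's quasi-likelihood test with Benjamini-Hochberg adjustment over all genes, here and below), where 86.3% of all 14952 genes tested did so. A total of 8 also exceeded an absolute log2 fold change of 0.58, against 64.9% of all genes, so that these counts do not set the integrins apart from other genes. Of the 10, 4 were higher in DU145 and 6 lower, where 42.8% and 43.5% of all genes were. ITGB8 was 72.3-fold lower in DU145 (log2 fold change -6.18, standard error 0.151, adjusted p = 3.62e-18), the largest difference among the subunits with more than 3 counts in both lines. Lower in DU145 were also ITGB4, ITGA6 and ITGA3, which bind laminin: ITGB4 by a log2 fold change of -2.41 (standard error 0.164), ITGA6 by -1.95 (standard error 0.0495) and ITGA3 by -0.45 (standard error 0.0589). The collagen receptor subunit ITGA2 was lower as well, at -1.76 (standard error 0.0691). Higher in DU145 were ITGA5, the alpha subunit of the fibronectin receptor, at 1.87 (standard error 0.0625), ITGAV at 0.88, ITGB1 at 0.83 and ITGB5 at 0.43. For ITGB6, 42 counts in the PC3 control libraries stood against 2 in DU145, a ratio of 19 per normalized count with a 95% exact interval of 4.93 to 162 for counting error only.

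ST6GAL1 overexpression was then compared with control in PC3 cells. ITGB6 rose most, and ITGB4 and ITGB8 rose by less, whereas ITGA3 and ITGA5 fell slightly. Of the 10 subunits tested, 5 passed an adjusted p of 0.05, 3 higher and 2 lower, where 37.3% of all 13544 genes tested did so (18.8% higher and 18.5% lower). Only ITGB6 also exceeded an absolute log2 fold change of 0.58, which 5.38% of all genes did (3.61% higher and 1.76% lower). The median log2 fold change of the subunits was 0.04, and that of all genes was -0.00. In RNA of whole cultures, a change in the share of cells that express a gene and a change per cell cannot be told apart.

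ITGB6 and ITGB8 encode beta subunits that pair with ITGAV and bind latent TGF-β. ITGB6, on chromosome 2, was read with 16, 13 and 13 counts in the PC3 control libraries and with 119, 173 and 121 in the overexpression libraries. Normalized CPM was 0.896, 0.825 and 0.85 in control cells and 8.12, 9.57 and 7.65 with overexpression. Each overexpression library thus exceeded each control library several times over. The mean rose from 0.857 ± 0.0362 to 8.45 ± 0.998 CPM (SD, n = 3 each), which is 9.8-fold, or 3.29 on the log2 scale with a 95% interval of 2.92 to 3.67 (standard error 0.184, adjusted p = 1.82e-18). Even after this rise ITGB6 was the least abundant of the 10 subunits in PC3 at 1.46 ± 0.172 CPM per kb. In the annotation, 16.7% of the exonic bases of ITGB6 (966) are shared with another gene on the same strand, ENSG00000285155, and whether the counting took this overlap into account is not given.

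ITGB8, on chromosome 7, was read at 29.8, 31.1 and 34.1 CPM in PC3 control libraries and at 42, 43.5 and 40 CPM with overexpression. The groups did not overlap. The change was 1.33-fold, or 0.41 on the log2 scale with a 95% interval of 0.29 to 0.52 (standard error 0.0568, adjusted p = 1.99e-07). The alpha partner of both, ITGAV, gave a log2 fold change of 0.02 in PC3 with a 95% interval of -0.06 to 0.09 (adjusted p = 0.791), and its libraries overlapped between 79.9 and 85.5 CPM. ITGB5, a vitronectin receptor subunit and also a partner of ITGAV, gave 0.03 with an interval of -0.05 to 0.10 (adjusted p = 0.65).

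Of the laminin-binding subunits, ITGB4 rose in PC3. ITGB4, on chromosome 17, pairs with ITGA6 in the laminin receptor of hemidesmosomes. It was read at 214.6, 247.8 and 229.5 CPM in control libraries and at 319.7, 324.5 and 324.5 CPM with overexpression. The lowest overexpression library lay well above the highest control library. The change was 1.4-fold, or 0.49 on the log2 scale with a 95% interval of 0.42 to 0.56 (standard error 0.0346, adjusted p = 2.16e-12), although with all 11 libraries in 1 fit, where DU145 libraries widen the spread, its adjusted p was 0.0562. Its partner ITGA6 was at 556.3 ± 5.27 CPM in control and 572.8 ± 3.83 CPM with overexpression, a log2 fold change of 0.04 (95% interval -0.01 to 0.09) that did not pass the test (adjusted p = 0.176). ITGA3 was at 1260.9, 1328.2 and 1300.7 CPM in control libraries and 1224.7, 1239.8 and 1219.2 with overexpression. All overexpression libraries lay below all control libraries, but the log2 fold change was only -0.08 (standard error 0.0235, adjusted p = 0.0073), and with all 11 libraries in 1 fit the adjusted p was 0.406.

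The collagen-binding subunit ITGA2 gave a log2 fold change of 0.03 in PC3 (95% interval -0.03 to 0.10, adjusted p = 0.441). ITGA5 was at 34.6, 39.6 and 36.8 CPM in control libraries and at 31.9, 33.2 and 33.2 CPM with overexpression. This fall by 0.17 on the log2 scale (standard error 0.0572, adjusted p = 0.0155) passed the test, but not without control replicate 2 (adjusted p = 0.126) or without overexpression replicate 1 (adjusted p = 0.0631), with DESeq2 (0.0813) or with all 11 libraries in 1 fit (0.0841). ITGB1, the common beta subunit, was at 1323.3, 1297.9 and 1319.0 CPM in control libraries and 1345.9, 1362.4 and 1377.8 with overexpression. The libraries did not overlap, but the difference was small, at a log2 fold change of 0.05 (95% interval 0.01 to 0.10), and did not pass the adjustment (adjusted p = 0.0645).

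In DU145 cells ITGA2, ITGAV and ITGB8 rose with ST6GAL1 overexpression, and ITGA3 and ITGB5 fell. These were 5 of the 9 subunits tested, where 20.1% of all 13676 genes tested passed (10.7% higher and 9.42% lower). ITGA2 and ITGB8 also exceeded an absolute log2 fold change of 0.58, as did 8.94% of all genes (4.33% higher and 4.61% lower). The median log2 fold change of the tested subunits was 0.18, against -0.00 for all genes. ITGB6 did not enter the test, with 0, 2 and 0 counts in control libraries and 0 and 0 with overexpression, which allows up to 0.227 CPM per control library and 0.19 CPM per overexpression library.

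ITGB8 was read with 8, 6 and 5 counts in DU145 control libraries and with 62 and 67 in the overexpression libraries. Normalized CPM was 0.527, 0.379 and 0.373 in control cells and 4.01 and 3.73 with overexpression. The groups were far apart, and both overexpression libraries gave similar levels. The mean rose 8.89-fold from 0.426 ± 0.0873 (SD, n = 3) to 3.87 ± 0.198 CPM (SD, n = 2), which is 3.15 on the log2 scale with a 95% interval of 2.53 to 3.78 (standard error 0.292, adjusted p = 4.69e-06). After removal of the trend the value was 3.01, and with a minimum of 10 counts in every library ITGB8 left the test. The level reached in DU145 was 0.255 ± 0.012 CPM per kb, below the 2.09 CPM per kb of PC3 control cells. Values per kb were normalized over all 11 libraries, although the line cannot be told apart from the table and sequencing run.

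ITGA2, on chromosome 5, encodes the alpha subunit of a collagen and laminin receptor. It was read with 626, 704 and 710 counts in DU145 control libraries and with 1414 and 1547 with overexpression, or at 41.2, 44.5 and 53 CPM and 91.5 and 86.2 CPM. The overexpression libraries were clear of the control libraries and close to each other. The change was 1.92-fold, or 0.94 on the log2 scale with a 95% interval of 0.72 to 1.16 (standard error 0.101, adjusted p = 2.77e-05), and 0.82 after removal of the trend with GC content and length.

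ITGAV, on chromosome 2, was at 160.2, 142.2 and 147.7 CPM in DU145 control libraries and at 192.4 and 170.8 CPM with overexpression. The log2 fold change was 0.28 (standard error 0.0813, adjusted p = 0.0281), and 0.13 after removal of the GC and length trend. It passed the test without overexpression replicate 3 (0.36, adjusted p = 0.0016) and not without overexpression replicate 2 (0.18, adjusted p = 0.133) or without any 1 of control replicates 1, 2 and 3 (adjusted p = 0.0624, 0.168 and 0.108).

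ITGB5 was at 113.9, 104.7 and 108.7 CPM in DU145 control libraries and at 81.1 and 86.8 CPM with overexpression. It fell by 0.38 on the log2 scale (standard error 0.0784, 95% interval -0.55 to -0.21, adjusted p = 0.00365), and the value was -0.30 after removal of the trend. Without any 1 library, in all 5 fits, it stayed under an adjusted p of 0.05.

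ITGA3 was at 944.5, 912.1 and 974.0 CPM in DU145 control libraries and at 653.8 and 799.9 CPM with overexpression, and thus lower in both, but to unequal extents. Its log2 fold change was -0.38 (standard error 0.0927, adjusted p = 0.0108) and -0.23 after removal of the trend. The call was kept without overexpression replicate 3 (-0.53, adjusted p = 0.000132) and lost without overexpression replicate 2 (-0.25, adjusted p = 0.0554) and without any 1 of control replicates 1, 2 and 3 (adjusted p = 0.0643, 0.0649 and 0.0584).

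The remaining subunits did not pass in DU145. ITGB1 was at 2438.2, 2350.7 and 2183.4 CPM in control libraries and at 2713.4 and 2369.3 CPM with overexpression, and the groups overlapped. Its log2 fold change was 0.13 with a 95% interval of -0.07 to 0.33 (adjusted p = 0.364), and -0.01 after removal of the trend. ITGA6 was at 149.3, 134.3 and 147.0 CPM in control libraries and at 169.2 and 155.4 CPM with overexpression, without overlap, but its log2 fold change of 0.18 (95% interval 0.01 to 0.34) did not pass the adjustment (adjusted p = 0.133), and was 0.07 after removal of the trend. It passed without overexpression replicate 3 (0.24, adjusted p = 0.026). ITGA5 was at 137.9, 127.2 and 137.3 CPM in control libraries and at 126.1 and 139.8 CPM with overexpression, which overlapped. Its log2 fold change was -0.01 (95% interval -0.18 to 0.16, adjusted p = 0.934), and 0.10 after removal of the trend. ITGB4 was at 38, 43 and 48.6 CPM in control libraries, and at 37.9 and 61.8 CPM with overexpression. Replicate 2 was thus as low as the lowest control and replicate 3 above the highest, so that the log2 fold change of 0.21 had a 95% interval of -0.38 to 0.80 (adjusted p = 0.588), and the value was 0.56 after removal of the trend. Without replicate 2 the value was 0.51 (adjusted p = 0.00315) and without replicate 3 it was -0.18 (adjusted p = 0.25).

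**Figure D2:**
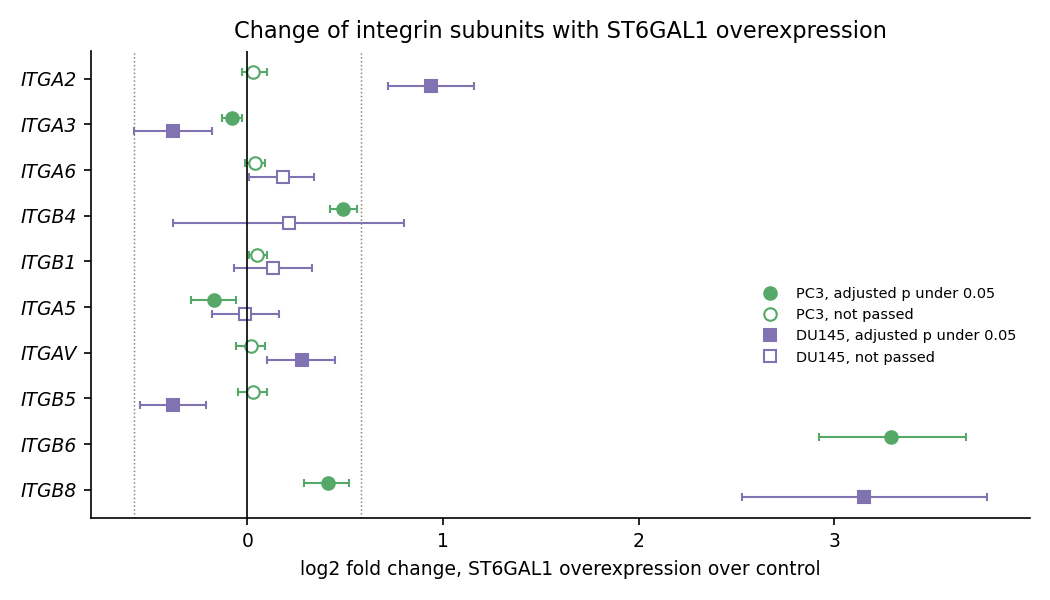
Log2 fold change of each subunit with ST6GAL1 overexpression in PC3 (circles) and DU145 (squares), with 95% intervals, filled where the adjusted p was under 0.05, and dotted lines at 0.58 on either side of 0. ITGB6 in PC3 (3.29) and ITGB8 in DU145 (3.15) lie far to the right, and ITGB6 has no point in DU145.

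**Figure D3:**
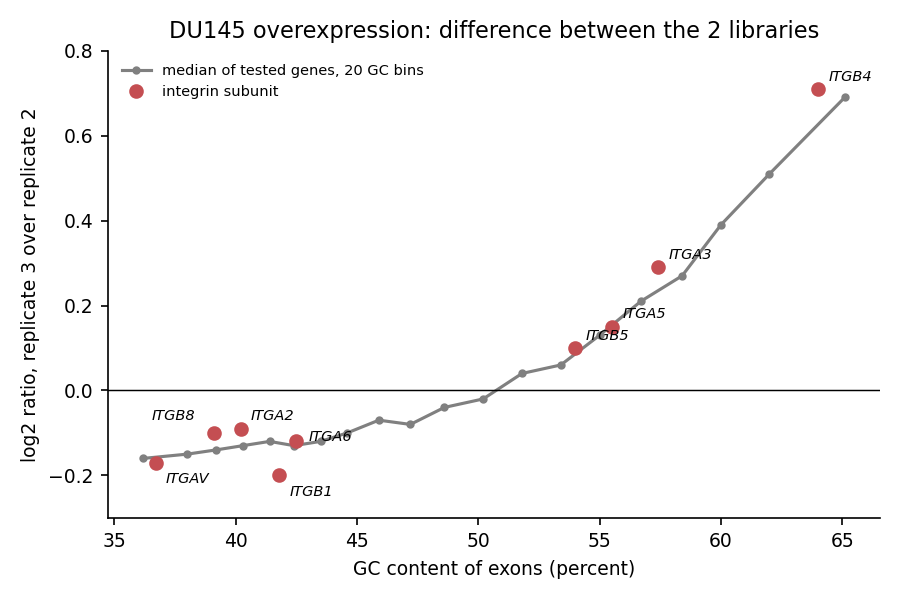
Log2 ratio of DU145 overexpression replicate 3 over replicate 2 against the GC content of the exons, as the median of tested genes in 20 bins (grey) and for 9 subunits (red). The subunits lie along the grey line, from ITGAV (36.7% GC, log2 ratio -0.17) to ITGB4 (64% GC, log2 ratio 0.71).

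The difference between both DU145 overexpression libraries split the subunits by GC content as well. ITGB4 (64% GC) was higher in replicate 3 by 0.71 on the log2 scale, ITGA3 (57.4%) by 0.29, ITGA5 (55.5%) by 0.15 and ITGB5 (54%) by 0.10. The other 5, between 36.7% and 42.5% GC, were lower in replicate 3, with log2 ratios from -0.09 to -0.20 that were not ordered by GC content. Against control, all 5 subunits of low GC content had positive log2 fold changes in DU145. The part of GC content in these changes was not tested beyond the removal of its trend.

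Whether a subunit changed differently in PC3 and DU145 was tested with an interaction term in 1 fit of the 11 libraries. ST6GAL1 itself rose by 3.58 on the log2 scale in PC3 and by 4.65 in DU145. This difference also passed the interaction test (1.06, adjusted p = 0.000286). A different response of the lines thus cannot be told apart from the different rise of ST6GAL1. Of the 10 subunits, 6 passed an adjusted p of 0.05, 3 more positive in DU145 and 3 more negative, where 19.7% of all 14952 genes did so (10.4% and 9.36%). Of these, 3 exceeded an absolute difference of 0.58, as did 8.72% of all genes (3.86% more positive and 4.86% more negative). ITGB8 rose more in DU145 than in PC3, by 2.74 on the log2 scale (standard error 0.263, adjusted p = 3.26e-07), and ITGA2 by 0.91 (standard error 0.0996, adjusted p = 2.47e-06). ITGB5 fell in DU145 relative to PC3 by 0.41 (standard error 0.0763, adjusted p = 0.000731). These 3 held without any 1 of the 11 libraries. After removal of the GC and length trend the values were 2.62 for ITGB8, 0.80 for ITGA2 and -0.26 for ITGB5. ITGAV (0.25, adjusted p = 0.0392) and ITGA3 (-0.30, adjusted p = 0.0207) passed in 3 and 8 of the 11 fits without 1 library, and their values after removal of the GC and length trend were 0.12 and -0.07. For ITGB6 the fitted difference was -6.05 (adjusted p = 0.0435), but DU145 was at the floor in this comparison, the value depends on the prior count, and without DU145 control replicate 2, the only DU145 library with ITGB6 counts, the adjusted p was 1, and it passed in 2 of the 11 fits. The increase of ITGB4 in PC3 was not shown to differ from DU145 (-0.27, 95% interval -0.83 to 0.28, adjusted p = 0.491). For ITGB1 the difference was 0.07 (95% interval -0.10 to 0.24, adjusted p = 0.592).

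The share of each subunit among its kind was computed from counts per kb of exon, with 18 alpha and 8 beta subunits in the denominators. The shares are given as a description, with no test. In PC3, ITGB1 made up 63.1% ± 1.31 of beta subunit mRNA in control cells and 58.2% ± 0.329 with overexpression (SD, n = 3 each), while ITGB4 went from 23.8% ± 1.46 to 29.7% ± 0.0137. The highest ITGB1 share with overexpression, 58.6%, lay below the lowest control share of 61.7%. The ITGB1 level itself was 1313.4 ± 13.6 CPM in control and 1362.0 ± 15.9 CPM with overexpression. The lower share was thus not a lower ITGB1 level, since a share also depends on the other beta subunits in the sum. ITGB6 went from 0.104% to 0.908% and ITGB8 from 1.46% to 1.72%, so that even a large fold of ITGB6 left it a minor beta subunit.

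In DU145, ITGB1 made up 81.8% ± 1.08 of beta subunit mRNA in control cells (SD, n = 3) and 84.9% ± 3.02 with overexpression (SD, n = 2), and ITGB5 8.59% ± 0.388 and 6.3% ± 0.681. ITGB8 went from 0.0144% to 0.124%. Among alpha subunits of DU145, ITGA2 went from 3.73% ± 0.425 to 7.82% ± 0.834, with no overlap, and ITGA3 from 61.5% ± 0.28 to 51.3% ± 4. In PC3 the alpha shares moved less, with ITGA3 at 52.6% and 50.6%, ITGA6 at 33.1% and 34.7% and ITGA2 at 7.92% and 8.23% in control and overexpression cells. With the longest transcript as the length, the shares of ITGB1 were higher in all 4 groups, and in PC3 they were again lower with overexpression (74.4%) than in control (77.9%).

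**Figure D4:**
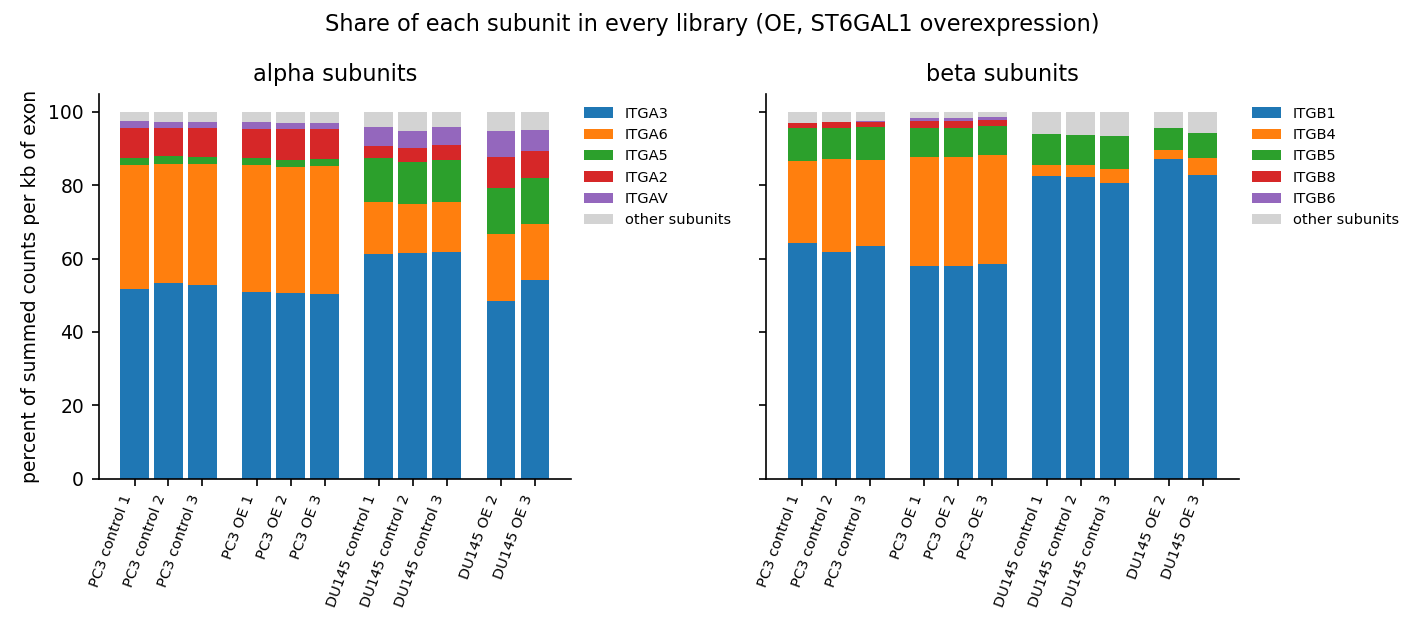
Share of each subunit in percent of the summed counts per kb of exon over 18 alpha (left) and 8 beta subunits (right), 1 bar per library. The ITGB1 share is lower in PC3 (57.9% to 64.3%) than in DU145 libraries (80.5% to 87.1%), and the ITGA2 share is 7.23% or more in DU145 overexpression libraries against 4.16% or less in DU145 control libraries.

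The other 16 integrin subunits were mostly low or absent, and 7 were tested in PC3 and 9 in DU145. In PC3, 2 passed an adjusted p of 0.05 upwards and 2 downwards, with ITGB3 alone past an absolute log2 fold change of 0.58, and in DU145 3 passed upwards and 2 downwards, all past it. Over all genes tested, 37.3% passed and 5.38% also exceeded this fold in PC3, and 20.1% and 8.94% did in DU145. ITGB3, a partner of ITGAV in the vitronectin receptor, was at 13.8, 13.5 and 11.5 CPM in PC3 control libraries and 8.87, 7.13 and 7.91 with overexpression, -0.71 on the log2 scale (standard error 0.101, adjusted p = 2.84e-07). In DU145 it was at 22.7, 21.1 and 22.7 CPM in control libraries and 35.8 and 34.4 with overexpression, 0.66 on the log2 scale (standard error 0.0988, adjusted p = 0.000309). Its directions in the lines were thus opposite, and the difference itself passed the test (1.37, adjusted p = 5.5e-07). ITGB3 shares 33.2% of its exonic bases with another gene on the same strand, ENSG00000259753, and whether the counting took this overlap into account is not given.

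ITGA1, the alpha subunit of another collagen receptor, rose in DU145 from 3.28 ± 0.615 to 9.6 ± 0.422 CPM, a log2 fold change of 1.54 (adjusted p = 3.1e-05), while in PC3 the value was 0.16 (adjusted p = 0.0355). The collagen-binding ITGA10 rose in DU145 from 0.803 ± 0.274 to 1.77 ± 0.145 CPM (1.15, adjusted p = 0.0258), a call lost without control replicate 1 (1.02), control replicate 2 (0.99) or overexpression replicate 2 (1.07). The leukocyte subunits ITGB2 (log2 fold change -0.84, adjusted p = 0.00317) and ITGAX (-1.51, adjusted p = 0.0217) fell in DU145, and ITGB2 also fell in PC3 (-0.55, adjusted p = 2.79e-06). ITGB2 was at 29.9 CPM in overexpression replicate 2 and 43.4 in replicate 3, against 64.8 to 67.4 in control libraries. The ITGAX call, on 13 to 21 counts per control library, was lost without control replicate 1 (-1.57), control replicate 2 (-1.38) or overexpression replicate 3 (-1.29). After removal of the GC and length trend, ITGB2 (60.8% GC) moved to -0.59 in DU145. The other DU145 values were then 1.39 for ITGA1, 1.20 for ITGA10, 0.63 for ITGB3 and -1.40 for ITGAX.

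Genes of the matrix ligands moved in both lines. Of 23 ligand genes tested in PC3, 9 passed an adjusted p of 0.05 upwards and 8 downwards, with a median log2 fold change of 0.05, where 18.8% and 18.5% of all genes did so. FN1, which encodes fibronectin, rose from 431.9 ± 10.3 to 830.7 ± 21.4 CPM in PC3 (log2 fold change 0.94, standard error 0.0256, adjusted p = 2.57e-29), and NPNT, which encodes the matrix protein nephronectin, rose from 3.5 ± 0.699 to 7.64 ± 0.655 CPM (1.11, adjusted p = 2.68e-08). LAMB3, a chain of the laminin that ITGB4 and ITGA3 receptors bind, fell from 218.5 ± 5.51 to 137.8 ± 5.26 CPM (-0.67, adjusted p = 1.64e-20), and CCN1, a matricellular ligand, fell from 509.0 ± 16.5 to 317.9 ± 21.7 CPM (-0.68, adjusted p = 4.04e-11).

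Of 25 ligand genes tested in DU145, 13 passed upwards and 2 downwards, with a median log2 fold change of 0.37, where 10.7% and 9.42% of all genes did so. TNC, which encodes tenascin C, rose from 69.1 ± 5.39 to 238.8 ± 11.5 CPM (log2 fold change 1.79, adjusted p = 6.66e-09), whereas in PC3 it had fallen from 237.7 ± 11.1 to 162.9 ± 1.9 CPM (-0.54, adjusted p = 8.69e-18). COL4A1, a basement membrane collagen, rose from 14.5 ± 1.17 to 55.2 ± 1.36 CPM (1.92, adjusted p = 2.77e-08) and THBS1, which encodes thrombospondin, from 41.9 ± 2.52 to 104.6 ± 4.39 CPM (1.32, adjusted p = 1.55e-07). NPNT fell in DU145 from 7.94 ± 0.995 to 4 ± 0.931 CPM (adjusted p = 0.00193), against its rise in PC3. The difference between the lines passed the test for both TNC (2.33, adjusted p = 5.53e-13) and NPNT (-2.13, adjusted p = 2.58e-06).

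The intracellular adaptors couple integrins to actin. Of 43 tested in PC3, 6 passed upwards and 9 downwards (34.9%, against 37.3% of all genes), and 0 of these exceeded a log2 fold change of 0.58, with edgeR, limma-voom or DESeq2. Of 42 tested in DU145, 9 passed upwards and 4 downwards (31%, against 20.1% of all genes). Past an absolute log2 fold change of 0.58 were 4 upwards and 2 downwards (14.3%, against 8.94% of all genes). TLN2, a talin that activates integrins, rose from 8.3 ± 0.564 to 17.1 ± 2.08 CPM (log2 fold change 1.05, adjusted p = 9.43e-05), LPP by 0.71 (adjusted p = 0.000103), and the tensin TNS4 from 0.506 ± 0.215 to 1.78 ± 0.23 CPM (1.82, adjusted p = 0.00342). Another tensin, TNS1, fell from 3.62 ± 0.358 to 1.35 ± 0.101 CPM (-1.42, adjusted p = 0.000816), as did LIMS2 (-1.28, adjusted p = 0.0202), a call lost without control replicate 2 (-1.18), control replicate 3 (-1.26) or overexpression replicate 2 (-0.84). After removal of the GC and length trend the LIMS2 value was -0.96. Of 13 membrane partners such as tetraspanins, 6 passed upwards and 5 downwards in PC3 (84.6%, against 37.3% of all genes), and 3 and 1 in DU145 (30.8%, against 20.1%), of which 0 exceeded 0.58 with any of the 3 tools.

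The genes next to the subunits on the chromosome were also summarised. Over the 50 tested genes nearest to each subunit, the median log2 fold change ranged from -0.10 (around ITGA6) to 0.04 (around ITGB6) in PC3 and from -0.16 (around ITGB4) to 0.09 (around ITGB5) in DU145. Around ITGB6 in PC3 and around ITGA2 and ITGB8 in DU145 the medians were 0.04, 0.08 and 0.01, below the changes of these subunits, whereas around ITGA6 and ITGAV in PC3 and ITGA5 in DU145 (-0.10, -0.05 and -0.11) they were larger in size than the subunits' own values.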

How the data were processed

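RNA was extracted from PC3 and DU145 cells, and libraries were prepared with a stranded mRNA kit. The deposited values are raw counts per Entrez gene, which the authors made in Galaxy with Cutadapt for trimming, HISAT2 for mapping to hg38 and featureCounts for counting. The annotation and strand setting used for counting are not given in the sources used here. Columns were matched to samples by name. Counts were analysed with edgeR 4.0.16 in R 4.3.3 (filterByExpr, TMM, robust quasi-likelihood test, Benjamini-Hochberg adjustment over all genes tested), per line for overexpression and over all 11 libraries for the interaction and the control lines, whereas the authors used limma-voom. Each standard error was taken as the log2 fold change over the root of its F statistic. Normalized CPM are mean ± SD. Gene symbols and coordinates are from RefSeq (GRCh38.p14, 27745 of 28395 genes matched), and exon lengths, GC content and exon overlaps from GENCODE.

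Alternatives were limma-voom 3.58.1, DESeq2 1.42.0, the size factors of RLE, all genes unfiltered, only genes with 10 or more counts in every library, the replicate number as a block, each library left out, all 11 libraries in 1 fit, and removal of the trend with GC content and length (mgcv 1.9.3, values only). Named were all 10 subunits, the other integrin subunits called in either line, ST6GAL1, and per line and list the 3 called ligand, adaptor or partner genes with the smallest adjusted p in each direction. Calls used an adjusted p under 0.05, with and without an absolute log2 fold change over 0.58. The subunits and lists were chosen with earlier results of these data known. The scripts were tested on simulated counts with 200 changed genes. Of these genes, 98% were recovered in PC3, 94.5% in DU145, 92% for the interaction and 98.5% between control lines. The false calls numbered 7, 8, 11 and 5 in the same order. These rates describe the simulated counts only, and recovery in the measured libraries was not tested. Replicate libraries all differed by more than sampling noise.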

Additional observations from a re-analysis of the deposited data

Results flagged for a closer look

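The subunits below changed differently with ST6GAL1 overexpression in PC3 and DU145, by an interaction test over all 11 libraries, and each value is the DU145 log2 fold change less the PC3 one. ST6GAL1 itself rose more in DU145 (by 1.06), so the line and the extent of overexpression cannot be told apart. ITGB8 differed by 2.74 and ITGA2 by 0.91, both higher in DU145, with ITGB8 at 5 to 8 counts in each DU145 control library. ITGB5 differed by -0.41, having fallen in DU145, and by -0.26 after removal of the trend with GC content and length. ITGAV differed by 0.25 and ITGA3 by -0.30, and these values were 0.12 and -0.07 after removal of the trend with GC content and length. ITGB6 differed by -6.05, a fitted value that rests on 2 counts in all DU145 libraries together and is no measure of size.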

How the results depend on the processing

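The rise of ITGB6 and ITGB8 in PC3 and of ITGA2 and ITGB8, with the fall of ITGB5, in DU145 kept direction and an adjusted p under 0.05 in all alternatives that could test them. The count of 5 subunits that passed in PC3 became 2 with all 11 libraries in 1 fit, and 4 to 6 without any 1 library. In DU145 the count of 5 became 3 to 6 without any 1 library (3 without control replicate 1, 2 or 3), and the count of 2 past a log2 fold change of 0.58 became 1 with at least 10 counts in every library. The 6 subunits that differed between the lines became 3 to 7, with 3 without PC3 control replicate 1, PC3 overexpression replicate 2 or DU145 overexpression replicate 2. Among called genes of the lists, the 1 other integrin in PC3 became up to 2, the 0 adaptors in PC3 became 0 to 2, the 5 other integrins in DU145 became 3 with DESeq2 and 3 at the lowest without any 1 library, the 6 adaptors in DU145 became up to 12 without overexpression replicate 3, and the 0 membrane partners in DU145 up to 2. With the longest transcript, the ITGB1 share became 77.9% and 74.4% in PC3 control and overexpression cells and 89.3% and 91.5% in DU145. Small values without a call turned sign: without any 1 library, ITGAV ranged from -0.01 to 0.03 in PC3, ITGA5 from -0.09 to 0.05 and ITGB4 from -0.18 to 0.51 in DU145, and the differences between lines from -0.04 to 0.15 for ITGB1 and from -0.69 to 0.02 for ITGB4. Of 924 values under alternatives for single genes and shares, 816 stayed on their side of the threshold or within the replicate spread, 47 lost a call, 8 gained one, 47 moved and 6 turned sign. The cause was not tested.

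Whether the replicate numbers pair the samples could not be settled. Correlations of deviations from the group mean for the same number were 0, 0.08 and 0.06 in PC3, and 0.09 and 0.29 in DU145. For different numbers they ranged from -0.08 to 0.02 in PC3 and from -0.29 to 0.24 in DU145. With 2 overexpression libraries in DU145, their deviations are opposite in sign, so its values come in pairs of equal size. With the replicate number as a block, 6 subunits passed in PC3 and 5 in DU145, the sixth being ITGB1 (0.05, adjusted p = 0.0467), and ITGA5 in DU145 was 0.01. At these depths ITGB6 was not detectable in DU145 overexpression libraries.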
